A study of Mus musculus with 11 samples.

Results

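The 4 Notch receptor genes of the mouse, Notch1, Notch2, Notch3 and Notch4, were examined in a chromatin immunoprecipitation sequencing (ChIP-seq) study of the line 8946, which derives from mouse T-cell leukaemia (T-ALL). They were chosen by gene name, and every factor peak and every histone segment that touched a gene span or the 50 kb on either side of it was taken. They are 4 of 21883 protein-coding genes in the RefSeq table of build GRCm38.p6.

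The 11 libraries came from 2 derivatives of the line, and cells of each derivative had been transduced with an epitope-tagged Zmiz1 carrying an NGFR marker and an activated Notch1 carrying a GFP marker, then sorted. Zmiz1 is a PIAS-like transcriptional coactivator. In the derivative with Flag-Zmiz1 and the Notch1 construct L1601PDP, called the Flag line here, Flag-Zmiz1, ICN1 (the intracellular part of Notch1), Rbpj and 4 histone marks were precipitated and an input was sequenced. In the derivative with HA-Zmiz1 and the construct DEGFDLNRDP, called the HA line, HA-Zmiz1 and ICN1 were precipitated beside an input. No group lacks the activated Notch1. Factor samples were fixed with disuccinimidyl glutarate and formaldehyde, and histone samples with formaldehyde alone. There was 1 library per target and line, so no value has a replicate error, no test was possible, and a difference between the lines cannot be told apart from a difference between libraries.

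Notch receptors are single-pass membrane proteins that bind Delta and Jagged ligands on a neighbouring cell. Ligand binding leads to cleavage by an ADAM protease and then by gamma-secretase, which frees the intracellular part to enter the nucleus. There it joins the DNA-binding protein Rbpj and a Mastermind coactivator. Notch1 commits blood progenitors to the T-cell lineage and carries activating mutations in many T-cell leukaemias, Notch2 serves marginal zone B cells, Notch3 is a known target of Notch signalling in T-cell leukaemia, and Notch4 is best known from endothelium.

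The receptors lie on 3 chromosomes of build mm10. Notch1 (gene ID 18128) is at chr2:26457902-26503822 on the minus strand and spans 45.9 kb. Notch2 (18129) is at chr3:98013538-98150367 on the plus strand and is the longest at 137 kb. Notch3 (18131) is at chr17:32120820-32166896 on the minus strand and spans 46.1 kb. Notch4 (18132) is at chr17:34564286-34588543 on the plus strand and spans 24.3 kb. Distances below run along the gene from its start, the end of the span at which transcription begins. Exon boundaries were not used here, so a peak is placed inside or outside a gene only.

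Rbpj peaks touched the promoter windows of Notch1 and Notch2, a window running from 250 bp before to 50 bp after the start, and the windows of Notch3 and Notch4 held none. The same was so of 28.1% of the 17491 coding genes whose strand is known. The promoters of the receptors with such a peak are given here from RefSeq (GRCm38.p6), 5′ to 3′ along the gene, with the bases under an Rbpj peak in capitals. The first is chr2:26503773-26504072 on the minus strand, where 64 bases are under the peak at the start of the gene, and the other is chr3:98013288-98013587 on the plus strand, where 189 bases are under 2 peaks.
Notch1: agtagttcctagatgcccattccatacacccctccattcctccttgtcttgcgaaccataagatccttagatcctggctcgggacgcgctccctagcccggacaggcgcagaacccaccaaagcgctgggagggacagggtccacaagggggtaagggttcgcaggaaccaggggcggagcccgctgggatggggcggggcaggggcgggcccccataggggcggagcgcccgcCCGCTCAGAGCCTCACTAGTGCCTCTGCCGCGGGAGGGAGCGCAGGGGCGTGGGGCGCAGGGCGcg
Notch2: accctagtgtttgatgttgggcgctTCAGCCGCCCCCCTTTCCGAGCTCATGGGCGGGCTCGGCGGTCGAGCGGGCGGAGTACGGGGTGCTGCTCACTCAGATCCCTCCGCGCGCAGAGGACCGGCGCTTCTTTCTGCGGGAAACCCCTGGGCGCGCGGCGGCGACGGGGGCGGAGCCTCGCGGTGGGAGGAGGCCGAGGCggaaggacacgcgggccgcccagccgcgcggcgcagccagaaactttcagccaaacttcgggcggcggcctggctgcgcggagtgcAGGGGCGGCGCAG
Both are rich in G and C, at 68.3% for Notch1 and 73.0% for Notch2, against a median of 56.3% over coding promoters, and the promoter windows of Notch3 and Notch4 have 70.0% and 58.3%. A few motifs were searched on both strands, and overlapping matches were kept. The Rbpj core TGGGAA stands in 24.5% of 21262 coding promoters of this length, the Runx core TGTGGT in 15.0% and the E-box CAGCTG in 15.6%. None of these letters occurs in any of the 4 receptor promoters, including the stretches under the Rbpj peaks there. Sequence outside these promoter windows was not read. No Rbpj peak at Notch3 or Notch4 was therefore searched, nor the strongest one at Notch1, 1.39 kb inside the gene. The weaker of the Notch2 peaks at the start was read only in part.

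Peak lists held 581 Flag-Zmiz1, 82 Flag-line ICN1, 20993 Rbpj, 4984 HA-Zmiz1 and 414 HA-line ICN1 peaks, from 13.5 M to 19.0 M filtered tags per ChIP and 36.4 M (Flag line) or 26.8 M (HA line) tags of input, with M for the SI prefix mega. T-cell markers carried the promoter mark: an H3K4me3 segment lay over an end of 10 of 10 T-cell genes, 1 of 6 B-cell genes, 1 of 6 myeloid genes and 0 of 3 other blood genes. The library labelled H3K27ac lay over an end of 10 of 10 developmental regulators and 0 of 10 housekeeping genes, and the library labelled H3K27me3 over 0 of 10 developmental regulators and 10 of 10 housekeeping genes. H3K27ac marks active promoters and enhancers and H3K27me3 marks Polycomb-repressed genes, so both files go against their labels, and each is called by its label throughout.

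Rbpj was the factor found at every receptor, and HA-Zmiz1 and ICN1 joined it at Notch3. An Rbpj peak lay in the window of 4 of 4 receptors, beside 67.2% of coding genes, so this count is near the background. HA-Zmiz1 peaks lay in the windows of Notch3 and Notch4, beside 27.8% of coding genes. An HA-line ICN1 peak lay in the window of Notch3, beside 3.42% of coding genes. Among the 10190 coding genes that, like all 4 receptors, had H3K4me3 over an end, the shares were higher, at 95.1% for Rbpj, 41.8% for HA-Zmiz1 and 5.3% for HA-line ICN1. Flag-Zmiz1 and Flag-line ICN1 had no peak in any of the 4 windows, beside 4.06% and 0.215% of coding genes. Of the Flag-line ICN1 peaks, 53 lay at places of high input and 29 did not, beside 42 and 539 for Flag-Zmiz1. The weakest peaks outside places of high input had folds of 3.85 for Flag-Zmiz1 and 3.86 for Flag-line ICN1. Peaks were limited by p and not by fold, so occupancy below about these folds, and some above them, may be unlisted.

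**Figure D1:**
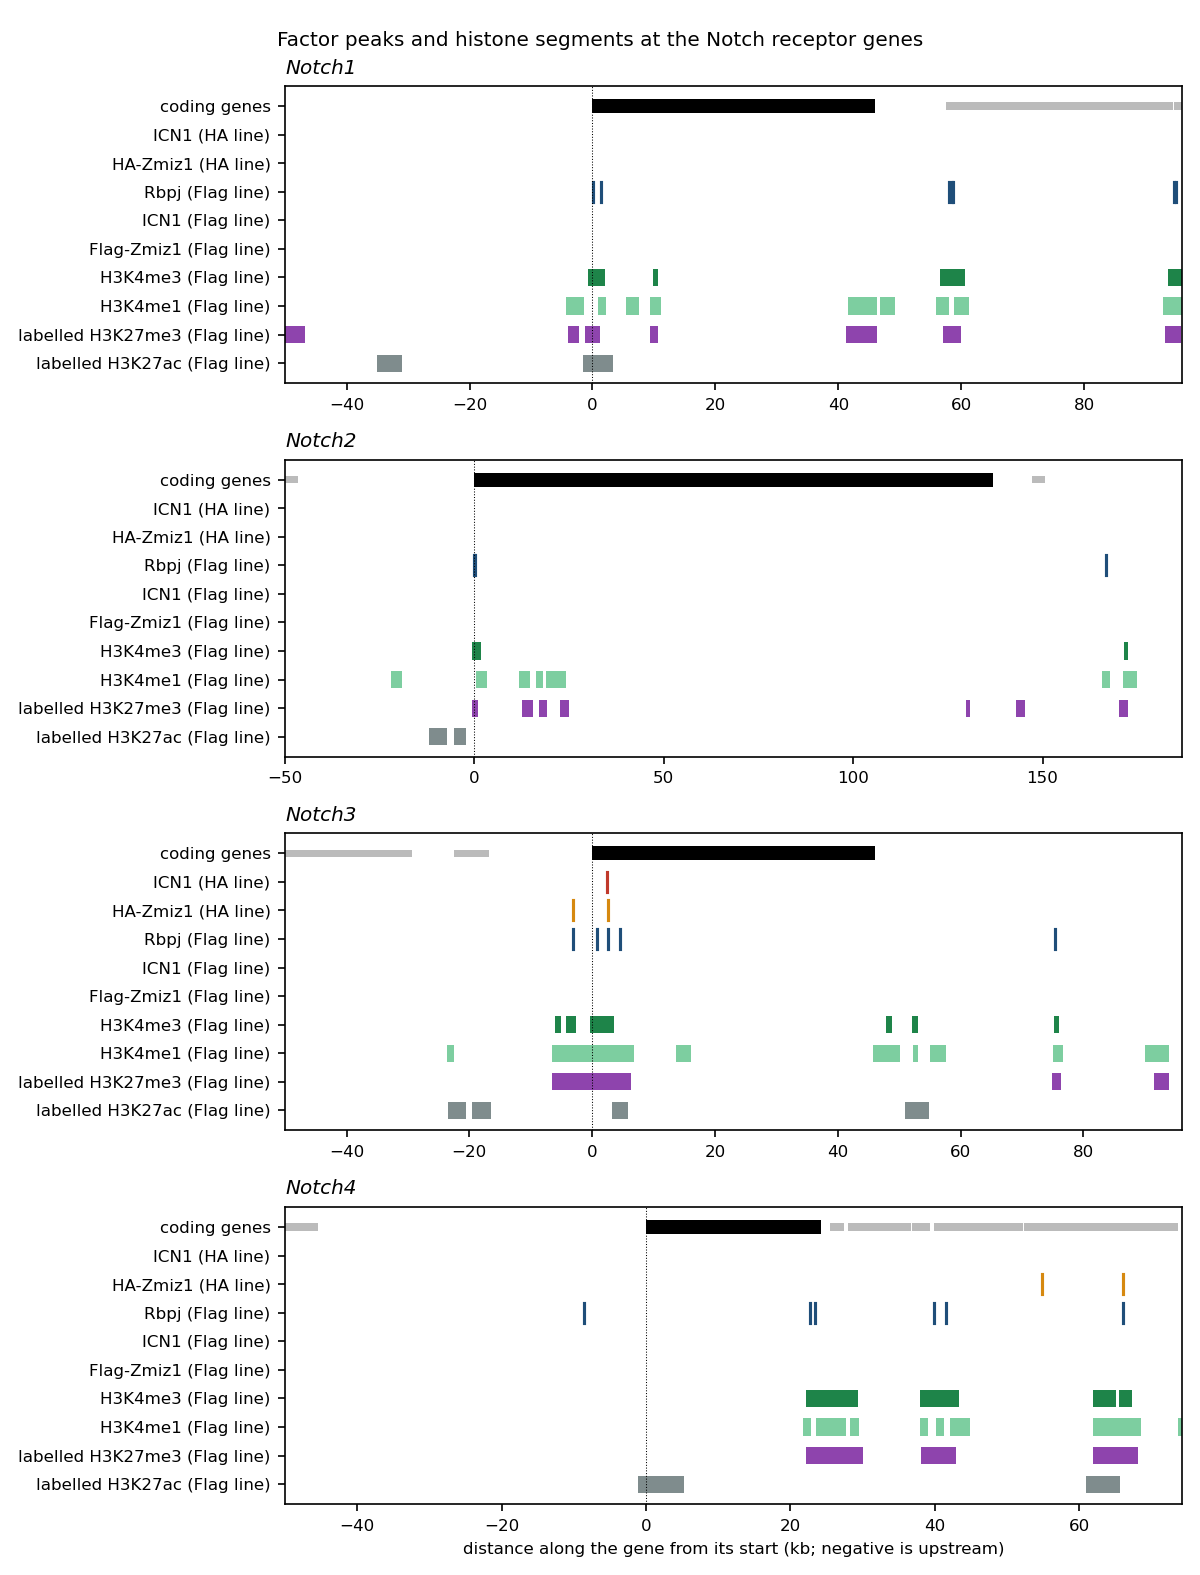
Factor peaks (ticks) and histone segments (bars, to scale) of 9 libraries in the windows of the 4 receptor genes, by distance from the gene start in kb. Black bars are the receptors and grey bars the neighbouring coding genes. Rbpj ticks stand in all 4 panels, HA-Zmiz1 ticks in the Notch3 and Notch4 panels and the ICN1 tick in the Notch3 panel.

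In all, 26 peaks fell in the 4 windows: 21 of Rbpj, 4 of HA-Zmiz1 and 1 of HA-line ICN1. They merged into 22 sites, 7 at Notch1, 3 at Notch2, 5 at Notch3 and 7 at Notch4. The fold over local input, the authors' own value per peak, ran from 4.4 to 18.7 over the 21 Rbpj peaks with a median of 6.56, beside a median of 6.47 over the whole Rbpj list. The strongest Rbpj peak had a fold of 15.8 at Notch1, 13.7 at Notch2, 18.7 at Notch3 and 11.2 at Notch4. At Notch1, Notch2 and Notch3 that strongest peak lay at most 2.5 kb from the gene's own start, and at Notch4 it lay 66.2 kb away over other genes. Local input at the 26 peaks was 1.01 to 5.71 times the genome mean, and none reached the 10 times that defines a place of high input here. Of the 21 Rbpj peaks, 8 lay inside a receptor gene and 10 had their summit within 1 kb of an end of some coding gene.

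**Figure D2:**
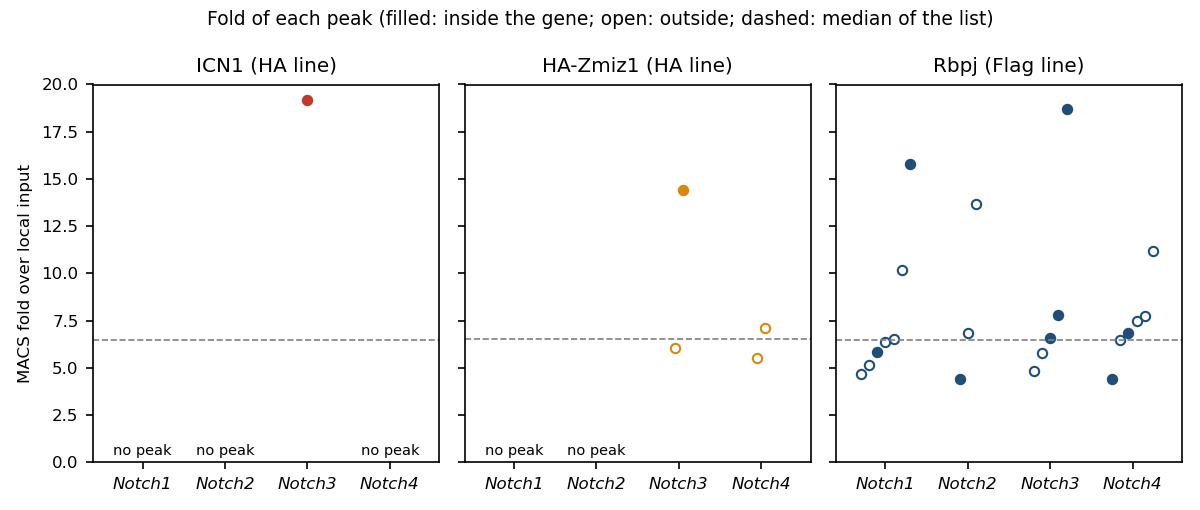
MACS fold over local input of each peak in the 4 windows, for HA-line ICN1, HA-Zmiz1 and Rbpj, with the dashed line at the median of the whole list. The 1 ICN1 point, at 19.2, is at Notch3. Notch3 also holds the highest of the 4 HA-Zmiz1 points, at 14.4, where only Notch4 has others, and the highest Rbpj point, at 18.7.

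Notch1, the receptor whose activated form was transduced into these cells, had 7 Rbpj peaks and no peak of any other factor. Rbpj peaks were as many or more at 12.4% of coding genes, whose median was 2. The strong peak, chr2:26502300-26502537, had its summit 1.39 kb inside the gene, a fold of 15.8, a pileup of 25 tags and a −log10 p of 31.8, and it ranked 675 of 20993 by p. It overlapped H3K4me1 and H3K4me3 segments and one of the library labelled H3K27ac. The peak at the start itself, chr2:26503775-26503838, whose bases are in capitals in the promoter, had a fold of 5.84 and a summit 4 bp before the start. The 5 others lay downstream at neighbouring genes. Those at the 5′ end of Sec16a, a scaffold of endoplasmic reticulum exit sites, had folds of 10.2, 5.17 and 4.67, and those at the 5′ end of Inpp5e, a phosphoinositide phosphatase of the primary cilium, had folds of 6.51 and 6.35.

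The start of Notch1 was the only one of the 4 under H3K4me3 and both H3K27 libraries together, a combination found over the 5′ end of 1.27% of coding genes. H3K4me3, a promoter mark, covered 2.8 kb there at a fold of 13.0, with 568 ChIP reads (95% Poisson interval 522 to 617, counting error only) against 67 control reads. The library labelled H3K27me3 covered 2.4 kb at a fold of 2.69, from 95 ChIP reads (77 to 116) against 55 control reads. The library labelled H3K27ac covered 5.0 kb at a fold of 2.72, from 160 ChIP reads (136 to 187) against 107 control reads. In these segments the 2 H3K27 marks were thus both called over the same bases. Their folds of 2.69 and 2.72 stood beside list medians of 2.84 (labelled H3K27me3) and 2.26 (labelled H3K27ac). The 13.0 of H3K4me3 stood beside a list median of 4.6, and folds of different libraries are not on the same scale. H3K4me1, a mark of enhancers and promoter flanks, did not cross the start, and lay on both sides of it, between -4.38 and -1.38 kb (negative is upstream) and between 0.822 and 2.22 kb inside.

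The other end of Notch1 carried a separate pair of segments. H3K4me1 covered 4.6 kb over the 3′ end at a fold of 3.83 (241 ChIP reads, 212 to 273, against 78 control reads), the highest H3K4me1 fold in the Notch1 window, and the library labelled H3K27me3 covered 5.0 kb there at 3.41. No factor peak lay in either. Inside the gene, between 9.42 and 11.2 kb from the start, H3K4me1 was called at a fold of 3.64, H3K4me3 at 2.62 and the library labelled H3K27me3 at 2.91, again with no factor peak. Both lines carry a Notch1 construct. Control reads at the segments over Notch1 numbered 15.5 to 25.0 per kb, beside medians of 17.5 to 26.8 per kb over the 4 segment lists.

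Notch2 had the fewest Rbpj peaks, 3 in the widest window of 237 kb, and no other factor. Its 1.27 Rbpj peaks per 100 kb were close to the median of 1.29 over coding genes, and 4.8 at Notch1, 3.42 at Notch3 and 4.83 at Notch4 were above it. The strong peak, chr3:98013313-98013488, had its summit 101 bp upstream of the start, a fold of 13.7 and a pileup of 27 tags, and ranked 867 of 20993 by p. A weak peak 39 bp inside the gene, at a fold of 4.4, had a pileup of 8 tags. The remaining peak, at a fold of 6.84, lay 167 kb from the start and 16.1 kb from Adam30, an ADAM family gene and the nearest coding gene. Over the Notch2 start, H3K4me3 covered 2.4 kb at a fold of 18.0 (610 ChIP reads, 563 to 660, against 52 control reads), the highest H3K4me3 fold over a receptor start. The library labelled H3K27me3 covered 1.4 kb at a fold of 3.16.

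Within the first 24.9 kb of Notch2, H3K4me1 and the library labelled H3K27me3 ran side by side without factor peaks beyond the start. H3K4me1 was called in 4 segments there with folds of 2.39, 3.38, 2.78 and 2.39 in order along the gene. The library labelled H3K27me3 had 3 segments beyond the start, at folds of 2.2, 1.62 and 1.58. All 3 were below its list median of 2.84, ranking 24192, 32571 and 32923 of 33646 by fold. With the upper 50% of segments by fold, this library covered 0.631% of Notch2, against 6.77% with all. The H3K4me1 list median was 2.43. The library labelled H3K27ac covered 0% of the Notch2 span and was called upstream alone, at folds of 1.7 between -12.1 and -7.14 kb and 2.02 between -5.54 and -2.14 kb from the start. The rest of this long gene, from 24.9 kb to its end, held a single segment, of the library labelled H3K27me3 at a fold of 2.49.

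Notch3 held the one site of the 4 windows where HA-line ICN1, HA-Zmiz1 and Rbpj peaks overlapped. A window with an ICN1 peak that both other factors touched was found at 2.29% of coding genes. The HA-line ICN1 peak, chr17:32164276-32164545, had a fold of 19.2, a pileup of 36 tags and a −log10 p of 44.8, and ranked 10 of 414 by p and also 10 by fold. The HA-Zmiz1 peak, chr17:32164201-32164570, had a fold of 14.4, a pileup of 38 tags and a −log10 p of 37.9, and ranked 43 of 4984 by p. The Rbpj peak, chr17:32164112-32164574, had a fold of 18.7, a pileup of 86 tags and a −log10 p of 84.8, and ranked 44 of 20993 by p. All 3 peaks thus stood near the top of their lists. The ICN1 and Rbpj summits were 33 bp apart, the HA-Zmiz1 and Rbpj summits 59 bp and the HA-Zmiz1 and ICN1 summits 92 bp, all between 2.44 and 2.53 kb inside the gene.

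Local input at this Rbpj peak was 5.71 times the genome mean, the highest of the 26 peaks, and 3.32 and 2.18 times at the HA-Zmiz1 and ICN1 peaks. The part of input in these peaks was not tested. Of the 414 HA-line ICN1 peaks, 299 overlapped both HA-Zmiz1 and Rbpj peaks. Their median ICN1 fold was 6.5 and the highest was 43.0, so 19.2 at Notch3 lies well above the middle of that class and below its top. Rbpj was precipitated in the Flag line, whose own ICN1 and Flag-Zmiz1 lists held no peak here, so the overlap joins peaks from both lines.

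**Figure D3:**
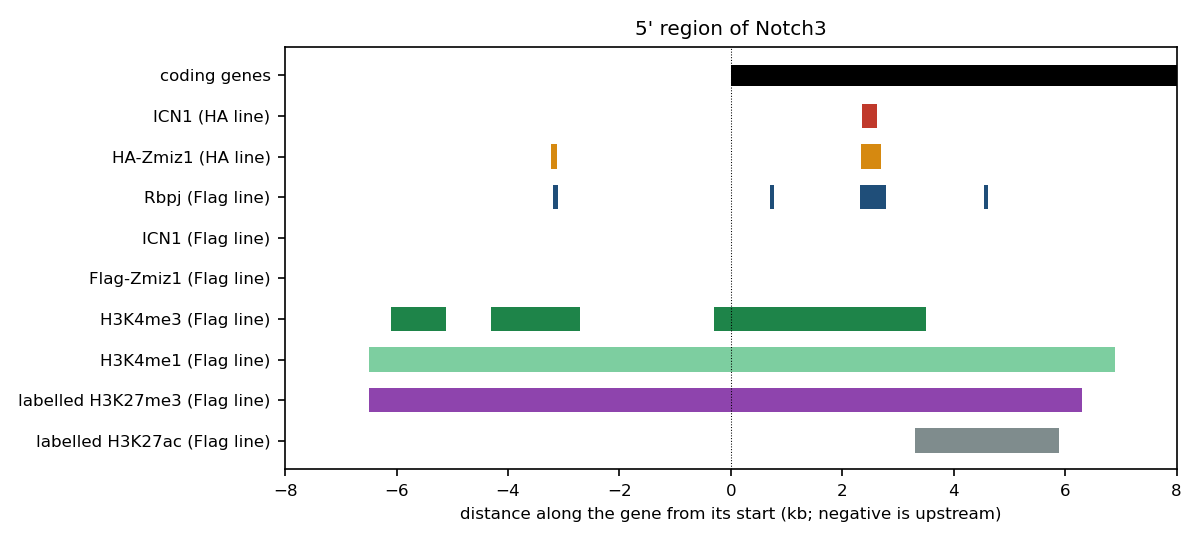
Peaks and segments of the 9 libraries (bars, to scale) around the start of Notch3, by distance from the start in kb. The ICN1, HA-Zmiz1 and Rbpj bars line up at about 2.5 kb inside the gene, under H3K4me3, H3K4me1 and the library labelled H3K27me3, and the library labelled H3K27ac begins at 3.3 kb.

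A second site at Notch3, chr17:32169992-32170125, lay 3.16 kb upstream of the start by its Rbpj summit. HA-Zmiz1 had a fold of 6.06 and Rbpj one of 5.8 there, with summits 17 bp apart and no ICN1 peak. These folds were below the list medians of 6.53 (HA-Zmiz1) and 6.47 (Rbpj). The −log10 p values were 9.17 and 8.48, so neither peak was kept at a p of 1e-10 or less. Rbpj alone was listed 739 bp inside the gene at a fold of 7.78, 4.58 kb inside at 6.56, and beyond the gene 75.5 kb from the start at 4.85. Upstream, Ephx3, an epoxide hydrolase gene, held no factor peak of its own.

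The chromatin around the Notch3 start was broad. H3K4me1 ran over 13.4 kb across it at a fold of 3.85 (945 ChIP reads, 886 to 1007, against 304 control reads), and 4.04% of the H3K4me1 segments were as wide or wider. The library labelled H3K27me3 ran over 12.8 kb at a fold of 4.37 (835 ChIP reads, 779 to 894, against 297), and 3.61% of its segments were as wide or wider. Both held the 2 HA-Zmiz1 sites and 4 of the 5 Rbpj peaks. H3K4me3 covered 3.8 kb, between -0.304 and 3.5 kb from the start, at a fold of 9.45. Upstream it was also called between -4.3 and -2.71 kb at a fold of 2.25, a segment that held the upstream HA-Zmiz1 site. Farther up, a segment between -6.1 and -5.11 kb had a fold of 3.07. The library labelled H3K27ac did not touch the start. It was called from 3.3 to 5.89 kb inside the gene, over 2.6 kb, at a fold of 2.24. The Rbpj peak of fold 6.56 lay there. The strongest segment of that library in the window lay past the 3′ end, between 50.9 and 54.9 kb from the start. Its fold was 4.19, ranking 1225 of 25172. Upstream, the library had a fold of 2.96 over the start of Ephx3 and one of 2.18 between -19.5 and -16.5 kb. H3K4me1 over the 5′ end was found at Notch3 alone of the receptors, beside 16.0% of coding genes.

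Notch4 differed from the other receptors at its start, where the library labelled H3K27ac covered 6.4 kb at a fold of 2.36 (122 ChIP reads, 101 to 146, against 94 control reads) and no other histone segment was called. That library without H3K4me3 was found over the 5′ end of 10.7% of coding genes. No factor peak lay within 5 kb of the start, and the nearest was an Rbpj peak of fold 7.51, 8.61 kb upstream, outside every histone segment.

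The last 2.14 kb of Notch4 were under other marks. H3K4me3 covered 7.2 kb over the 3′ end at a fold of 22.0 (2183 ChIP reads, 2092 to 2277, against 152 control reads), ranking 491 of 26767 by fold, and the library labelled H3K27me3 covered 8.0 kb at 7.33, ranking 840 of 33646. These segments also covered the starts of Gpsm3, a modulator of G protein signalling 1.26 kb away, and of Pbx2, a homeodomain factor 3.72 kb away. Rbpj peaks lay inside Notch4 in these segments, 22.7 and 23.3 kb from its start, at folds of 4.4 and 6.84. Whether the 3′ segments belong to Notch4 or to its neighbours cannot be told apart in these files.

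The window of Notch4 held 9 coding neighbours, more than the 2 of each other receptor, and 5 of its 8 peaks were at those genes. Rbpj peaks at Agpat1, an acyltransferase of phospholipid synthesis, had folds of 7.73 and 6.48. At a place inside both Ppt2, a lysosomal thioesterase gene, and Prrt1, Rbpj had a fold of 11.2 and HA-Zmiz1 one of 5.52, with summits 62 bp apart. HA-Zmiz1 alone was listed inside Ppt2 at 7.1, outside every histone segment. The other neighbours, Gpsm3, Pbx2, Btnl6, Ager, Rnf5 and Egfl8, had no peak of their own.

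**Figure D4:**
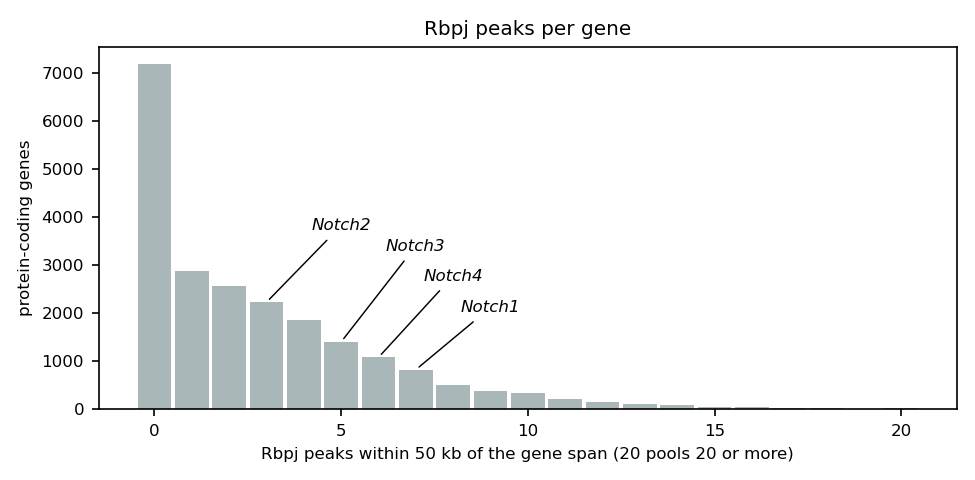
Number of Rbpj peaks in the 50 kb window of each of 21883 protein-coding genes (x axis) against the number of genes with that count (y axis), with the receptors marked. Notch2 with 3, Notch3 with 5, Notch4 with 6 and Notch1 with 7 peaks all stand above the median of 2 and inside the body of the distribution.

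Over an end of the span, H3K4me3 was called at 4 of 4 receptors beside 46.6% of coding genes, the library labelled H3K27me3 at 4 of 4 beside 43.1%, H3K4me1 at 3 of 4 beside 23.8% and the library labelled H3K27ac at 2 of 4 beside 18.9%. Over the 5′ end these became 3 of 4 for H3K4me3 beside 45.9%, 3 of 4 for the library labelled H3K27me3 beside 41.8% and 2 of 4 for the library labelled H3K27ac beside 15.5%. Notch1, Notch2 and Notch3 make up the 3 in both cases, and Notch1 and Notch4 the 2. The order of H3K4me3 folds over the start was Notch2 at 18.0, Notch1 at 13.0 and Notch3 at 9.45, and their 610, 568 and 616 ChIP reads had overlapping counting intervals, against 52, 67 and 100 control reads.

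**Figure D5:**
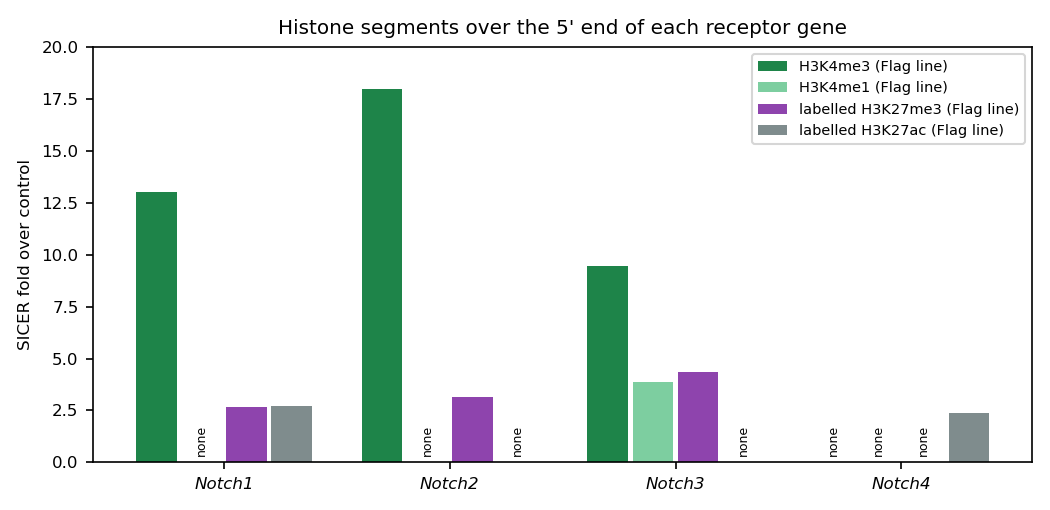
SICER fold over control (bars) of the segment over the 5′ end of each receptor gene in the 4 histone libraries, with "none" where no segment was called. H3K4me3 has the tallest bar at Notch1, Notch2 and Notch3, and at Notch4 the library labelled H3K27ac has the only bar, at 2.36.

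Rbpj peaks at the receptors were set beside all Rbpj peaks for the histone segments they sat in. H3K4me3 segments held 18 of the 21, beside 87.3% of all Rbpj peaks, segments of the library labelled H3K27me3 held 18, beside 86.2%, and H3K4me1 segments held 12, beside 57.8%. Segments of the library labelled H3K27ac held 3 of the 21, beside 5.31% of all Rbpj peaks: both peaks at the Notch1 start and the one 4.58 kb inside Notch3. H3K4me1 segments covered 21.1% of Notch1, 9.35% of Notch2, 21.0% of Notch3 and 8.01% of Notch4, beside a median of 4.36% and a mean of 15.7% over coding genes. With the upper 50% of segments by fold, the Notch2 value was 3.51%. The library labelled H3K27ac covered 7.45% of Notch1, 0% of Notch2, 5.64% of Notch3 and 21.9% of Notch4, beside a median of 0% and a mean of 9.14%. With the upper 50% of its segments the Notch3 value was 0%.

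Across all 9 lists, each gene was described by log2(1 + best fold in the window), with 0 where there was no peak or segment. Euclidean distance over these 9 values was least between Notch1 and Notch2, at 0.64, and greatest between Notch2 and Notch3, at 5.96. Much of the distance to Notch3 came from its HA-Zmiz1 value, 3.94, and HA-line ICN1 value, 4.34. Notch1 and Notch2 had no peak in either list, so their values there were 0. Notch4 stood 3.11 from Notch1, 3.21 from Notch2 and 4.62 from Notch3. These values belong to the windows and in part to neighbouring genes. For Notch1 the best H3K4me3 fold, 19.9, and the best fold of the library labelled H3K27me3, 4.85, were those over the start of Sec16a, against 13.0 and 2.69 over its own start. For Notch4 the best Rbpj and HA-Zmiz1 folds, 11.2 and 7.1, lay at Ppt2. For Notch3 the best folds of H3K4me3, 13.5, the library labelled H3K27me3, 4.72, and the library labelled H3K27ac, 4.19, lay beyond the gene. The coding genes most like Notch1 were Tgoln1 at 0.07 and Elmod3 and Retsat at 0.08, neighbours on chromosome 6 that share their window, beside a median of 3.43. Notch2 was nearest to Ccdc110 at 0.31 and to 1700029J07Rik and Ufsp2 at 0.32, beside a median of 3.4. Notch3 was nearest to Nccrp1 and Pak4 at 0.45 and Acp7 at 0.72, beside a median of 6.14. Notch4 was nearest to Gm40447 at 0.16 and to Apoe and Tomm40 at 0.23, beside a median of 3.52. The genes named for Notch2 all lie on chromosome 8 and those for Notch3 all on chromosome 7, as do Apoe and Tomm40. Within each of these groups most of the values were the same, so the genes are not independent matches.

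The other genes of the pathway were read in the same windows. Of 34 such genes, 30 had an Rbpj peak, 13 an HA-Zmiz1 peak, 4 an HA-line ICN1 peak and 1, the coactivator gene Maml2, a Flag-Zmiz1 peak at a fold of 7.42. The shares over all coding genes were 67.2%, 27.8%, 3.42% and 4.06%. None had a Flag-line ICN1 peak, beside 0.215% of coding genes. The ICN1 peaks were in the windows of Mfng, a Fringe glycosyltransferase that modifies Notch, and Aph1a, a gamma-secretase subunit. They were also in those of Dtx1, an E3 ligase and Notch target, and Nrarp, a feedback inhibitor. Places within these windows were not read, so the peaks may lie at neighbouring genes. The best folds of different factors need not come from the same site. In these windows the best ICN1 folds were 5.99, 5.99, 10.8 and 8.96, each below the 19.2 of Notch3. The best Rbpj folds were 14.4, 7.89, 49.7 and 28.2, and those in the Dtx1 and Nrarp windows stood above the 18.7 of Notch3. The best HA-Zmiz1 folds were 15.3, 8.73, 4.79 and 4.2, and that in the Mfng window was above the 14.4 of Notch3.

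By role, Rbpj peaks lay in the windows of 3 of 5 ligand genes, 4 of 4 glycosyltransferases and 8 of 8 proteases and secretase subunits. They also lay in those of 6 of 6 nuclear partners, 4 of 4 inhibitors and turnover genes and 5 of 7 targets. The share over coding genes was 67.2%. The ligand genes Dll1 and Jag1 and the target genes Hes1 and Hey1 had none. The library labelled H3K27ac lay over an end of 4 of 5 ligand genes and 6 of 7 targets, beside 18.9% of coding genes. Its best fold over the span of those ligand genes was 5.33 at Dll1, 2.78 at Dll3, 5.03 at Dll4 and 5.54 at Jag2. Over the targets it was 5.77 at Hes1, 5.92 at Hes5, 3.33 at Hey1, 2.81 at Dtx1, 6.31 at Nrarp and 1.94 at Il2ra. The 2.72 of Notch1 and 2.36 of Notch4 lay within this range, near its lower end. Over all 34 genes it lay over an end of 14, H3K4me3 of 24 beside 46.6% of coding genes, the library labelled H3K27me3 of 18 beside 43.1% and H3K4me1 of 14 beside 23.8%.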

How the data were processed

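The authors deposited peak lists for 5 factor libraries and segment lists for 4 histone libraries. Peaks were called with MACS 2.0.10.20120913 against the line's input at a p-value limit of 1e-05, with 1 tag kept per position, per the file headers. Each deposited peak has a pileup (signal, in tags), a fold (ratio over local input) and a −log10 p. The deposited segment lists give counts of ChIP and control reads, a fold and a p-value for each segment, of which the p-value was not used. SICER 1.1, Bowtie 0.12.7 and build mm10 are named in the submitters' processing notes, and the control used for the segments is not given in the sources used here. HA-line headers name pooled reads.

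Peaks and segments overlapping a gene span with 50 kb on either side, by 1 bp or more, were listed. SICER positions were moved to a 1-based count. Shares over coding genes are backgrounds, not tests. Local input was recovered from pileup and fold. Promoter sequences were matched by symbol, for 4 of 4 receptors. The members and lists were chosen with earlier results of these data known. The overlap code, in Python 3.11.15 with pandas 2.3.3 and numpy 2.4.6, was tested on simulated data, and exact Poisson intervals came from scipy 1.17.1. The genes named are the receptors, the neighbours in their windows (1 is not reported here), the pathway list and, for each receptor, the 3 genes with the nearest pattern.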

Additional observations from a re-analysis of the deposited data

How the results depend on the processing

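With 1 library per target and line, only thresholds and windows could be varied. The number of receptors with an HA-Zmiz1 peak, 2 with a 50 kb window, was 1 with a 5 kb window and 4 with a 200 kb window. The number with an H3K4me1 segment over an end, 3, was 1 when the 5′ end alone was counted, an alternative chosen after seeing the data. The other 32 values of this kind stayed within 1.5 times, among them the 1 site with ICN1, HA-Zmiz1 and Rbpj peaks and the 1 receptor with an HA-line ICN1 peak. Of 96 values for single receptors, 81 stayed and 15 moved. Many values that stayed, in both sets, were counts of no peak, which a 5 kb window or a stricter p limit could not raise. Leaving out high-input peaks could change no peak count at a receptor, because no peak in the windows was high-input. These tallies are thus no measure of robustness. Rbpj peaks at Notch1, 7 with a 50 kb window, numbered 2 within 5 kb, 13 within 200 kb and 3 at a p of 1e-10 or less. Of 10 shares over coding genes, 6 moved: with a 5 kb window they were 12.1% for HA-Zmiz1, 1.21% for HA-line ICN1, 1.36% for Flag-Zmiz1 and 0.0823% for Flag-line ICN1, and among genes with an H3K4me3 segment 41.8% for HA-Zmiz1 and 5.3% for HA-line ICN1. With the upper 50% of segments by fold, the share of Notch2 under the library labelled H3K27me3 was 0.631%, against 6.77% with all. No paired analysis was possible because each target and line has 1 library and no result comes from a test. Intervals on reads cover counting error only.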
